A study of Mus musculus with 16 samples.

Results

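Myc occupancy of the genome was compared between resting mouse splenic B cells and the same kind of cells after 4 h with lipopolysaccharide (LPS), by chromatin immunoprecipitation and sequencing (ChIP-seq). The comparison used 6 of the 16 libraries of the study. These were 1 Myc and 1 control (IgG) library from untreated B cells (B0) and 2 Myc and 2 IgG libraries from B cells treated with 25 ug/ml LPS (B4). They were chosen by title: B0_Myc over B0_IgG, against B4_Myc and its repeat over B4_IgG and its repeat, here called replicates 1 and 2. The other libraries of the study are of RNA polymerase II (Pol2) in B4 cells, of B4 cells given 10058-F4, an inhibitor of Myc-Max pairing, and of T cells. Bins for the comparison were ranked by the reads of the B4 Pol2 library marked wt in its title, so that no Myc library chose them. This ranking is not neutral between B0 and B4, since it favours sites with Pol2 after LPS. Sites with Pol2 only in resting cells may be missed.

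The B cells were isolated from spleen and labelled as quiescent before treatment. The antibody of the Myc libraries was Clontech 632460, which is raised against EGFP, so these libraries report an EGFP-tagged Myc. The IgG was Santa Cruz sc-2025 and the Pol2 antibody was Abcam ab5408. The labels used here give neither genotype nor strain, age or pooling of the animals, nor what the mark wt in the titles of the Pol2 library and of 1 more B4 IgG library means. They do not say whether the replicates came from separate animals, so any p-value measures only the spread between these libraries. The B cell label itself could not be checked against marker genes, since ChIP reads give no expression.

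Myc is a basic helix-loop-helix leucine zipper transcription factor that binds DNA as a pair with Max, most strongly at E-box sequences in active promoters. Resting lymphocytes hold little Myc, and mitogens such as LPS, a bacterial cell wall component that drives B cell growth and division, induce it within hours. Pol2 gathers at the start sites of active genes. An IgG library shows how many reads a region gives without a specific antibody, and open chromatin at active promoters often gives more of them than the rest of the genome.

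The libraries held 7433203 (B0 Myc), 4108310 (B0 IgG), 2141694 and 3099793 (B4 Myc replicates 1 and 2), and 3367741 and 5119994 (B4 IgG replicates 1 and 2) reads on chromosomes 1 to 19. Each was thinned at random to 2141694 reads, the size of the shallowest. The sets also differed in other ways. Reads on chromosome X were 42.0% and 43.6% of those on chromosome 3 in B0 Myc and B0 IgG, and 65.9% to 69.8% in the 4 B4 libraries. Reads were 45 bases long except in replicate 1 of B4 Myc and B4 IgG, where they were 24 to 30. The low chromosome X share was also found in B4 IgG wt (36.8%) and in the B4 Pol2 library (36.9%). LPS treatment and these library differences cannot be told apart in the 6 libraries.

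At the bins with the most Pol2, Myc reads of both B4 replicates exceeded the mean of the B4 IgG pair. In B0 they hardly or not at all exceeded B0 IgG. The autosomes were divided into 4924888 bins of 500 bp, of which 1147864 held a Pol2 read. In the 1000 bins with the most Pol2 reads (47 to 917 each), Myc over IgG was 0.975-fold in B0, with a 95% interval of 0.936 to 1.01. It was 2.84-fold (2.75 to 2.94) in B4 replicate 1 and 2.13-fold (2.06 to 2.21) in replicate 2. Intervals are exact binomial ones and cover counting error only. The mean B4 difference from B0 was 1.34 on the log2 scale, and the SD of the 2 B4 log2 folds was 0.29 (n = 2). Both folds share the mean of the B4 IgG pair, so this SD leaves out the spread of the controls. With each B4 Myc library over the B4 IgG library of its own replicate number, the folds lay further apart, at 3.26 and 1.89. The exact two-sided permutation test over the 3 Myc libraries gave p = 0.333, which is the smallest value that 1 library against 2 allows. In these bulk libraries, fewer cells with Myc at a site and less Myc per cell cannot be told apart.

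A few of the top Pol2 bins are high in every library. A background screen kept bins whose Pol2 reads, scaled to the library's reads on chromosomes 1 to 19 (RPM), were at least 4 times those of B4 IgG wt. It left 967 of the top 1000 and 4701 of the top 5000. In the 33 removed bins of the top 1000, Myc over IgG was 0.674-fold in B0, 0.929-fold in B4 replicate 1 and 1.38-fold in replicate 2. In the 967 screened bins it was 1.30-fold (1.23 to 1.37) in B0, 4.62-fold (4.43 to 4.83) in B4 replicate 1 and 2.83-fold (2.70 to 2.97) in replicate 2. The screen thus raised the B0 value above 1 and kept the order of the 3 libraries. Over all 4701 screened bins of the top 5000 the values were 1.26-fold (1.23 to 1.29), 4.04-fold (3.95 to 4.12) and 2.65-fold (2.59 to 2.72).

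In screened bins the B4 enrichment fell with Pol2 rank, and that of B0 also fell, over a smaller range. Over all bins the enrichment first rose from the top 1000 to the next 4000, to 3.76-fold and 2.58-fold in the B4 replicates and 1.24-fold in B0, and then fell. In screened bins of the next 4000 (28 to 47 Pol2 reads), Myc over IgG was 1.25-fold in B0 and 3.85-fold and 2.60-fold in the B4 replicates. In the next 15000 it was 1.24-fold against 2.57-fold and 1.75-fold. In the next 80000 (3 to 12 Pol2 reads) B0 was at 1.17-fold, between 1.39-fold in B4 replicate 1 and 0.948-fold in replicate 2, so the B4 libraries no longer lay on the same side of B0. In the remaining screened bins with a Pol2 read the 3 libraries lay between 0.971-fold and 1.01-fold.

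**Figure D1:**
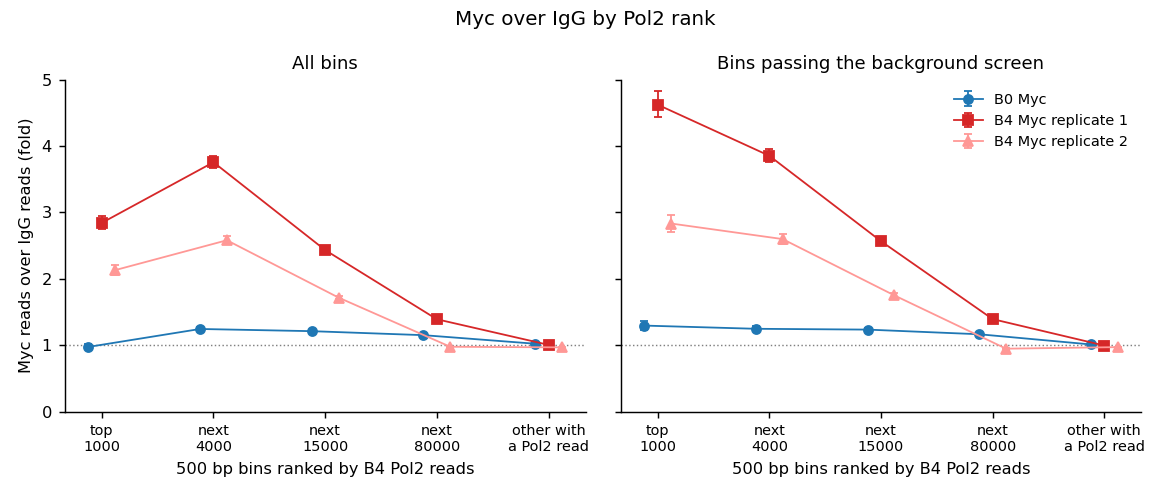
Myc reads over IgG reads (fold, depth-matched) in 500 bp bins by rank of B4 Pol2 reads, for all bins and for bins passing the background screen, with 95% binomial intervals for counting error. B4 replicates 1 and 2 start at 4.62-fold and 2.83-fold in the screened top 1000 and approach 1, while B0 runs from 1.30-fold to 1.01-fold.

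The denominators moved as well as the Myc libraries. The screened bins of the top 5000 took 0.608% of depth-matched reads in B0 Myc, 1.22% in B4 Myc replicate 1 and 0.801% in replicate 2. They took 0.483% in B0 IgG, but 0.291% and 0.313% in B4 IgG replicates 1 and 2. The Myc reads alone were 2.0-fold (1.96 to 2.05) and 1.32-fold (1.29 to 1.35) those of B0 in the B4 replicates, a smaller rise than in the ratios. The IgG reads of B4 were 0.602-fold and 0.647-fold those of B0. The B4 Myc replicates differed from each other by 1.52-fold, which is more than the 1.32-fold between replicate 2 and B0. The B4 ratios of Myc to IgG were 3.21 and 2.11 times that of B0, a larger change than that of the Myc reads.

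Other IgG libraries of B4 cells gave other sizes. Of the 6 B cell IgG libraries, 2 came from cells given 10058-F4 with LPS, and they took 0.412% and 0.369% of all reads in the screened bins of the top 5000. Across the 6, the screened bins of the top 5000 took 0.412% to 0.548% of all reads in the 3 with a chromosome X share under 50% of chromosome 3, among them B0 IgG, and 0.293% to 0.369% in the 3 above it. The screen used B4 IgG wt, so its own reads in these bins were chosen to be low, and it still had the 0.548%. Which Myc library belongs with which IgG is not stated in the labels. Over any of these 6 controls, Myc enrichment in these bins was 2.22-fold to 4.16-fold for B4 replicate 1, 1.47-fold to 2.76-fold for replicate 2 and 1.12-fold to 2.10-fold for B0. In the top 1000 bins without the screen, the ranges were 1.08-fold to 3.27-fold, 0.819-fold to 2.48-fold and 0.615-fold to 1.86-fold in the same order. Replicate 2 was there below B4 IgG wt (0.918-fold) and below the first IgG library of cells given 10058-F4 (0.819-fold). Under 1 and the same control, B4 replicate 1 was highest, replicate 2 next and B0 lowest, since a shared denominator keeps the order of the Myc reads.

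With B4 IgG wt as the B4 control and B0 IgG kept for B0, the difference in the top 1000 bins nearly vanished. The log2 difference from B0 became 0.31 for B4 replicate 1 and -0.10 for replicate 2, a change of direction for the latter. In bins screened without that library it was 0.87 and 0.17. With no IgG it was 0.80 and 0.38. Replicate 1 lay above B0 under each of these controls, and replicate 2 under each except B4 IgG wt in all top 1000 bins. The first IgG library of cells given 10058-F4 also put replicate 2 below B0 there. With all reads, log2 folds over it were 0.11 and -0.29 in the B4 replicates, against -0.07 for B0 over B0 IgG. In the 967 screened bins they were 1.77 and 1.08, against 0.36.

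A measure within each library needs no IgG and no scaling to depth. Of the screened bins of the top 5000, 3596 were Pol2 maxima, with the most Pol2 reads within 5 bins on both sides. Reads at the maxima over reads 4 to 5 kb away were 3.89-fold (3.83 to 3.94) in B0 Myc, 7.58-fold (7.43 to 7.74) in B4 Myc replicate 1 and 7.38-fold (7.23 to 7.53) in replicate 2. The B4 replicates lay close together here and apart from B0. The same measure was 3.41-fold in B0 IgG, and 1.96-fold and 2.79-fold in the B4 IgG replicates. It was 3.24-fold in B4 IgG wt, 2.90-fold and 2.98-fold in the IgG libraries of cells given 10058-F4, and 17.7-fold in the B4 Pol2 library. B0 Myc was thus 1.14 times its IgG on this measure. The B4 replicates were 3.19 and 3.11 times the mean of the B4 IgG pair. Both libraries of that pair were lower on this measure than every other B cell IgG library, so these ratios depend on the control.

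**Figure D2:**
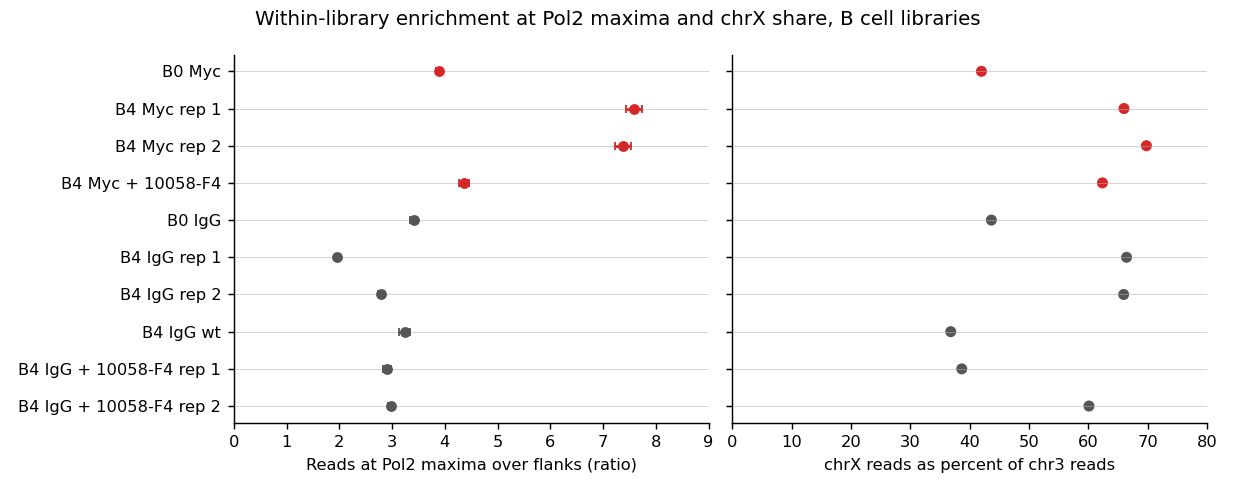
Reads at 3596 Pol2 maxima over reads 4 to 5 kb away (ratio, with 95% binomial intervals) and chromosome X reads as a percent of chromosome 3 reads, for 4 Myc (red) and 6 IgG (grey) libraries of B cells. B4 Myc replicates 1 and 2, at 7.58 and 7.38, stand above all other libraries, of which B4 Myc with 10058-F4 is next at 4.36 and B0 Myc is at 3.89.

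The B4 enrichment over IgG peaked at the Pol2 maxima, and that of B0 was also highest there, over a smaller range out to 5 kb on both sides. At the central bin of the maxima, the depth-matched RPM was 1.35 in B0 Myc, 2.75 in B4 Myc replicate 1 and 1.82 in replicate 2. The IgG libraries had 1.07 in B0 and 0.614 and 0.695 in B4. The central B4 Myc bins therefore stood above B0 Myc, and the central B4 IgG bins below B0 IgG. Myc over IgG at the centre was 1.26-fold in B0, 4.20-fold in B4 replicate 1 and 2.78-fold in replicate 2. At 1 kb on the left and right it was 1.18-fold and 1.15-fold in B0, 1.68-fold and 1.63-fold in replicate 1, and 0.937-fold and 0.939-fold in replicate 2. At 5 kb it was 1.12-fold and 1.15-fold, 1.31-fold and 1.23-fold, and 0.912-fold and 0.872-fold in the same order.

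**Figure D3:**
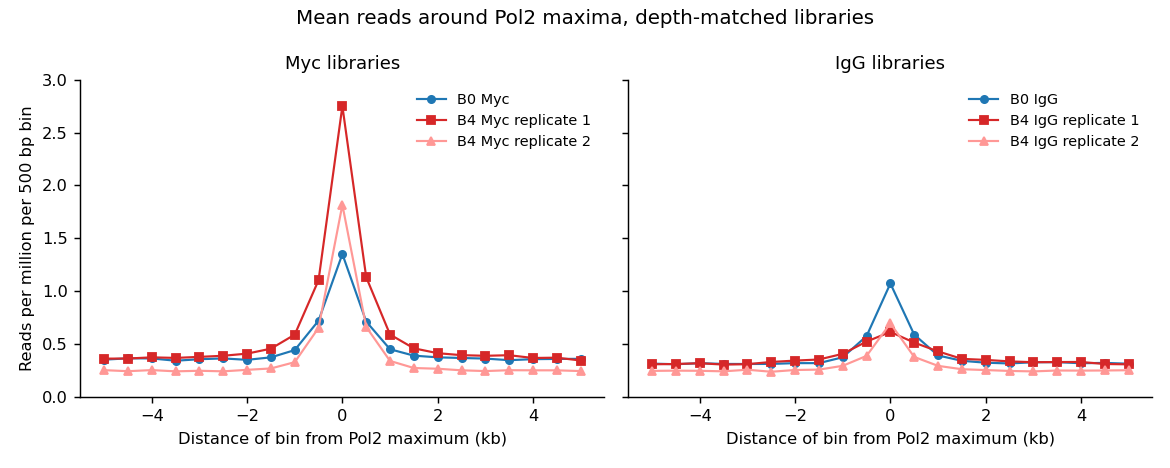
Mean depth-matched RPM per 500 bp bin against distance from 3596 Pol2 maxima (kb), for the 3 Myc and the 3 IgG libraries. All 6 libraries peak at the centre: B4 Myc replicate 1 at 2.75, replicate 2 at 1.82 and B0 Myc at 1.35, with B0 IgG (1.07) above both B4 IgG libraries.

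Neighbouring bins and the width of the Pol2 signal made small differences. Screened bins of the top 5000 that were no maxima (1105) had 1.25-fold Myc over IgG in B0, and 3.45-fold and 2.23-fold in the B4 replicates, where maxima had 4.20-fold and 2.78-fold. Maxima were also grouped by how many of the top 20000 bins lay within 5 kb. With 1 or 2 such bins (2154 maxima) the B4 replicates were at 4.15-fold and 2.76-fold, and with 3 or 4 (984 maxima) at 4.66-fold and 3.04-fold. With 5 or more (458 maxima) they were at 3.59-fold (3.35 to 3.84) and 2.35-fold (2.18 to 2.53), the lowest of the 3 groups. B0 was at 1.25-fold, 1.24-fold and 1.38-fold (1.27 to 1.50) in the same order, so the broadest sites had the lowest value in both B4 replicates and not in B0. Per 1000 bins, B0 Myc took 0.137%, 0.132% and 0.133% of reads and B0 IgG 0.110%, 0.106% and 0.0961%. In the broadest group B4 Myc was also lowest, at 0.243% and 0.159%. Median Pol2 reads were 35, 39 and 45, so width was not separated from Pol2 reads.

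In single bins the shift was seen as a change in the share of bins. In 434 of the top 1000 bins (43.4%) both B4 Myc libraries had more depth-matched reads than B0 Myc, against a background of 11.5% of all bins with a Myc read. Both had fewer in 132 (13.2%), against a background of 26.4%. IgG went the other way: both B4 IgG libraries were above B0 IgG in 97 (9.7%), with a background of 11.9%, and below it in 430 (43.0%), with a background of 25.6%. Among the next 80000 bins, 10.4% were higher and 30.3% lower in both B4 Myc libraries, close to the background. The background bins had median Myc reads of 0 in B0, 0 in B4 replicate 1 and 1 in replicate 2. In the top 1000 bins the medians were 3, 6 and 4. Such shares depend on the reads per bin, and ties are common at few reads. The background is thus not matched for depth, and its distance from the top 1000 does not measure a change in Myc. Without B4 Myc replicate 1 the top 1000 gave 52.5% higher and 33.9% lower, and without replicate 2 they gave 68.3% and 22.5%, since a single library then decides.

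The distribution of Myc reads over bins was shifted upward in B4. Over the 4701 screened bins the median was 2 depth-matched reads in B0 Myc and 4 and 3 in B4 Myc replicates 1 and 2. At least 3 reads were found in 49.7% of bins in B0 Myc, 70.0% in B4 replicate 1 and 58.7% in replicate 2. The IgG libraries had 36.5% in B0 and 17.5% and 18.7% in the B4 replicates. The highest bins held 17, 62 and 33 Myc reads, and 13, 70 and 21 IgG reads in B0 and in B4 replicates 1 and 2, so the highest bin of all was in a control. Bins with no read numbered 350 to 405, nearly equal in the 3 Myc libraries. At least 8 reads were found in 85 bins of B0 Myc and 36 of B0 IgG. At least 10 reads were found in 10 bins of B0 Myc, as many as in B0 IgG (10). The B4 Myc replicates had 728 and 201 such bins, against 4 and 3 in their IgG libraries. The B4 replicates shared 138 of them, which was 19% of replicate 1's and 68.7% of replicate 2's. Of all 4701 bins, 15.5% were in the list of replicate 1 and 4.28% in that of replicate 2. Of the 10 in B0 Myc, 6 were also in the list of B4 replicate 1 and 3 in that of replicate 2.

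**Figure D4:**
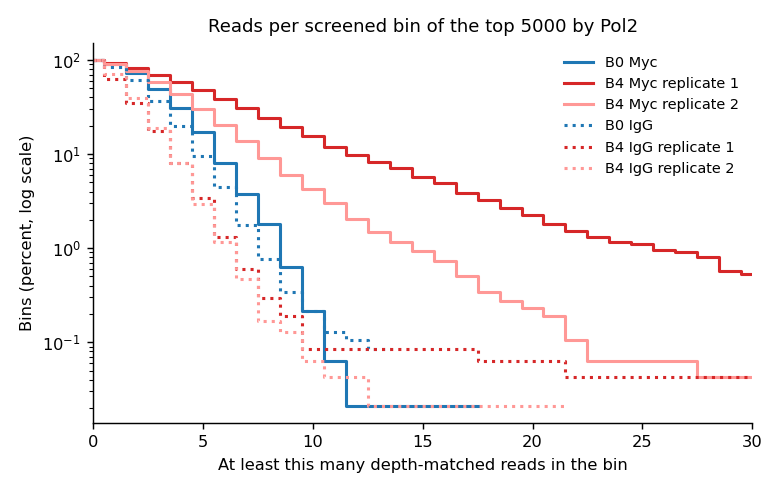
Percent (log axis) of the 4701 screened bins of the top 5000 that hold at least the number of depth-matched reads on the x axis, for the 3 Myc (solid) and 3 IgG (dotted) libraries. At 10 reads or more the B4 Myc curves hold 728 and 201 bins, B0 Myc and B0 IgG 10 each, and the B4 IgG curves 4 and 3, although 1 bin of B4 IgG replicate 1 reaches 70 reads, beyond the axis.

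The shift was spread over the genome. In screened bins of the top 5000, with all reads, Myc over IgG ranged over the 19 autosomes from 1.17-fold to 1.35-fold in B0 (median 1.27). In B4 it ranged from 3.56-fold to 4.70-fold in replicate 1 (median 4.08) and from 2.01-fold to 3.21-fold in replicate 2 (median 2.67). Both B4 replicates exceeded B0 on 19 of 19 chromosomes, and also did so in Myc reads alone. Chromosomes share their libraries and are not replicates.

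**Figure D5:**
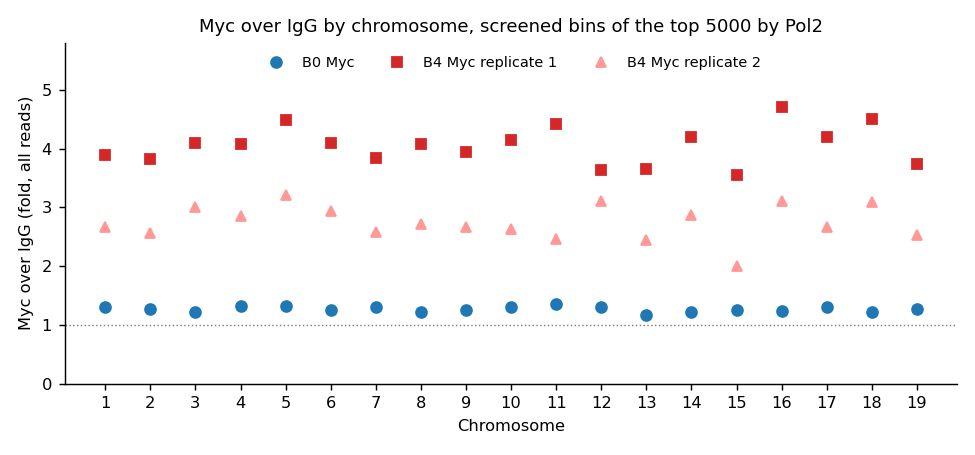
Myc over IgG (fold, all reads) on each autosome in the screened bins of the top 5000, for B0 and the 2 B4 replicates, with a dotted line at 1. The ranges of the 3 libraries do not overlap: B0 ends at 1.35, replicate 2 runs from 2.01 to 3.21 and replicate 1 starts at 3.56.

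No single bin passed the test of the change fitted without a replicate block. The test was limma, with voom weights and p-values adjusted after Benjamini and Hochberg. It took the 8029 bins of the top 20000 whose mean over the 6 libraries was 4 reads or more, and the contrast was (B4 Myc minus B4 IgG) minus (B0 Myc minus B0 IgG). It called 0 bins higher and 0 lower (0%) at an adjusted p of 0.05, and the smallest adjusted p was 0.147. At an unadjusted p under 0.05, 796 bins (9.91%) were higher and 10 (0.125%) lower in B4. limma-trend called 0 bins as well and had 413 of 415 bins higher at that unadjusted threshold. The median log2 difference was 1.10, and 6137 bins (76.4%) were above 0. The read filter is on unscaled reads, so bins high in any of the 6 libraries pass it more easily, those high in the deepest most. With no filter, the median over all 20000 bins was 0.82 and 13727 (68.6%) were above 0. B0 has 1 library of each kind, which was assumed to vary like the B4 pairs, and the fit had 2 residual degrees of freedom. Without B4 Myc replicate 1 limma called 36 bins (0.448%) higher, and without replicate 2 it called 358 (4.46%) higher and 3 (0.0374%) lower. With 1 B4 Myc library left, the only residual degree of freedom comes from the B4 IgG pair, so these calls carry no spread between Myc libraries. With B4 IgG wt as the only B4 IgG, limma called 0 bins, 23 bins had an unadjusted p under 0.05, of which 1 was higher in B4, and the median difference was 0.13.

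The bins named next are those that a rule on the screened Pol2 maxima chose, as mm8 positions. They have no gene names because no mm8 annotation was used here. Values are RPM without thinning. The 10 maxima with the most Pol2 reads were chosen without regard to Myc, and 8 of them were higher in both B4 Myc libraries than in B0. In depth-matched reads, both were higher in 43.4% of the top 1000 bins and 11.5% of all bins with a read. Ties count as not higher there, and RPM of libraries of unequal depth seldom tie. The 8 of 10 is therefore not like for like with these shares. In 6 of the 10, both B4 IgG libraries were below B0 IgG. In depth-matched reads the share was 43.0% of the top 1000 bins and 25.6% of all bins with an IgG read. These shares have the same limit.

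At chr8:87866501-87867000 Myc was 0.942 in B0 and 6.07 and 3.55 in the B4 replicates, from 7, 13 and 11 reads. IgG there was 1.46 in B0 and 0.594 and 0.195 in B4. This bin had the lowest adjusted limma p of the 8 tested, 0.417, which did not pass. At chr2:127027501-127028000 Myc was 1.48 in B0 and 6.54 and 3.23 in B4, with IgG at 1.22 in B0 and at 0.891 and 0.977 in B4. At chr3:95744001-95744500 it was 1.08 in B0 and 4.67 and 3.23 in B4, with IgG at 1.46, 0.891 and 0.586. In each of these 3 bins the B4 Myc libraries lay above the B0 library and above every IgG library.

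Others of the 10 maxima showed a small difference or one of mixed direction, and 1 was lower in both B4 Myc libraries. The screened maximum with the most Pol2 reads, chr13:43796001-43796500 with 209, had Myc at 1.61 in B0 and at 1.40 and 3.23 in B4, on both sides of B0. At chr12:56410501-56411000, with 144 Pol2 reads, Myc was 1.35 in B0 and 1.40 and 1.61 in B4, close together, and IgG was 0.974 in B0 and 1.48 and 1.17 in B4. At chr10:80335501-80336000, with 120 Pol2 reads, there were 5 Myc reads in B0 and 0 in each B4 replicate. A count of 0 allows up to 3 reads, or 1.40 and 0.968 RPM in these libraries, above the 0.673 of B0, so a difference was not detectable at this depth.

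Among the 1839 screened maxima of the top 5000 with at least 20 Myc reads over the 3 libraries, 1621 had a log2 difference above 0. The choice by summed Myc reads favours bins high in any of the 3 Myc libraries, of which B0 was the deepest. The share above 0 was 76.4% over the 8029 bins tested and 68.6% over the 20000 with no filter, so nothing is read from this count. The 5 largest and 5 smallest were chosen by that difference, so their values are a description. At chr4:124353001-124353500 Myc had 6 reads in B0 and 17 in each B4 replicate, or 0.807, 7.94 and 5.48 RPM, while IgG had 7 reads in B0 and 0 in both B4 libraries. At chr7:127045001-127045500 Myc had 6 reads in B0 and 24 and 11 in B4, while IgG had 19 reads in B0 and 1 and 2 in B4. In all 5 bins with the largest difference both B4 Myc libraries were above B0 and both B4 IgG libraries below it. The choice by this difference favours that pattern.

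At the other end, chr15:74548001-74548500 had 18 Myc reads in B0 and 0 and 2 in B4, with 1 IgG read in B0 and 3 and 7 in B4. At chr4:34967001-34967500 there were 18 Myc reads in B0 and 1 and 4 in B4, with 1 IgG read in B0 and 3 and 4 in B4. In all 5 bins with the smallest difference both B4 IgG libraries were above B0 IgG, and in 3 of them both B4 Myc libraries were below B0. The choice by the difference favours this pattern too. The adjusted limma p of these 5 bins was 0.522 to 0.712, so none passed.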

How the data were processed

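Each deposited file lists the aligned reads of a library with their position, length and strand. No count, normalised value or peak is included. The submitters' processing notes name CASAVA 1.0, Bowtie 0.12.7 and the build mm8. Their settings are not given in the sources used here. It is not stated if the first base is numbered 0 or 1, so coordinates may be off by 1 base. Read lists of 12 B cell libraries were used and 4 T cell libraries were not used here.

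From the deposited lists, reads with the same 5′ end and strand were reduced to 1, which removed 5.26% in B4 Myc replicate 1, 0.0796% in B4 IgG replicate 1 and 0 elsewhere. Reads were shifted to the fragment centre by the strand offset over 2, counted in 500 bp bins of chromosomes 1 to 19, and thinned with a fixed seed. Folds are ratios of summed reads over the mean of the B4 IgG pair or over B0 IgG. The replicate pairs differed beyond sampling noise, with a chi-square per degree of freedom of 18.6 for Myc and 13.0 for IgG, so each library was counted on its own. limma 3.58.1 in R 4.3.3 and Python 3.11.15 with numpy 2.4.6, pandas 2.3.3, scipy 1.17.1 and matplotlib 3.10.9 were used, and the calculations were tested on simulated data. The regions named were the 10 screened maxima with the most Pol2 reads, and the 5 with the largest and the 5 with the smallest limma difference among screened maxima of the top 5000 bins with at least 20 Myc reads. Members, bins and rules were chosen with earlier results of these data known. Alternatives covered depth, seed, bins, ranking, controls, scaling, duplicates, shift, filters and libraries left out. Chosen after seeing the data were B4 IgG wt as control in bins screened without it or as the only B4 IgG in limma, the IgG libraries of low chromosome X share, the screened top 5000, and centre over flank with and without IgG.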

Additional observations from a re-analysis of the deposited data

How the results depend on the processing

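The mean log2 difference of 1.34 in the top 1000 bins was 0.96 in the top 20000 bins, 0.11 with B4 IgG wt as the B4 control, 0.52 with that control in bins screened without it, and 0.59 with no IgG. The 3 IgG libraries of low chromosome X share, used for every Myc library, also gave 0.59, which equals the value with no IgG by construction. For replicate 1 (1.54) the same settings gave 1.21, 0.31, 0.87, 0.80 and 0.80, and the top 200 bins gave 1.04. For replicate 2 (1.13) they gave 0.71, -0.10, 0.17, 0.38 and 0.38, and centre over flank in Myc divided by that in IgG gave 1.44. Without IgG, centre over flank gave 0.96 for replicate 1, 0.92 for replicate 2 and 0.94 for the mean. Leaving out 1 B4 library gave 1.13 to 1.54 for the mean, 1.37 to 1.74 for replicate 1 and 0.95 to 1.33 for replicate 2. The other settings moved the mean by less than 1 SD of the B4 replicates, an SD that leaves out the spread of the controls.

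limma called 3 bins (0.015%) higher without a filter on low counts and 1 (0.00628%) with 1000 bp bins. A replicate block that pairs libraries by title gave 53 (0.66%), with 1 residual degree of freedom. The deviations of Myc and IgG libraries of the same title mark had a correlation of 0.0959 over 8029 bins, and no label says what the mark stands for. The first pair also shares its read lengths of 24 to 30 bases. Leaving out 1 B4 library gave 0 to 358 bins higher and 0 to 3 lower. The other limma settings called 0. With bins ranked by the Pol2 library of 10058-F4-treated cells, 39.8% of bins were higher and 17.1% lower in both B4 Myc libraries. Leaving out 1 B4 Myc library gave 52.5% to 68.3% higher and 22.5% to 33.9% lower. The cause of these shifts was not tested, except where the construction gives it. B0 had 1 Myc library, the 0 to 17 depth-matched reads per bin there limit single bins, and no Pol2 library of B0 cells was used.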
